A study of Mus musculus with 4 samples.

Results

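The promoters described here are those of the nuclear genes for the subunits of oxidative phosphorylation, complexes I to V of the mitochondrial inner membrane. A peak was taken as a member when the deposited annotation named it for a gene whose symbol begins with Nduf (followed by a, b, c, s or v), Uqcr, Cox4 to Cox8 or Atp5, or for Sdha, Sdhb, Sdhc or Sdhd, and placed it in the promoter class. This gave 258 of 417506 peaks over 4 libraries, 65 in each vehicle library and 64 in each activin library. The peaks carried the names of 70 of the 15603 genes with a promoter peak in any library, and they merged into 78 of 255101 regions. Of the 70 genes, 59 code for subunits. The symbol pattern also took in 9 genes that do not (the complex I assembly factors Ndufaf1 to Ndufaf7, and Atp5s and Atp5sl) and 2 pseudogenes (Atp5l-ps1 and Atp5l2-ps).

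The libraries were ATAC-seq libraries, in which a transposase cuts and tags open chromatin, from LbT2 cells (LbT2b in the sample titles, LβT2b in the culture protocol), an established mouse line with features of the pituitary gonadotrope. Cells were held in serum-free medium overnight and then received vehicle (2 libraries) or 1 nM activin A (2 libraries) for 6 h, and both groups thus share the serum withdrawal. Activin A is a ligand of the TGFβ family that acts through SMAD proteins. The labels do not say whether the 2 libraries of a group came from separate cultures, so p-values measure only the spread between these libraries, which may be technical.

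Complex I (NADH dehydrogenase) and complex II (succinate dehydrogenase) pass electrons from NADH and succinate to ubiquinone, complex III (the cytochrome bc1 complex) passes them to cytochrome c, complex IV (cytochrome c oxidase) reduces oxygen, and complex V (ATP synthase) makes ATP from the proton gradient that complexes I, III and IV build. Most subunits come from nuclear genes and a few core ones from mitochondrial DNA, which was not analysed here. The nuclear genes are widely expressed and many of their promoters are CpG-rich. NRF1, the ETS factor GABPA (NRF2), YY1, SP1 and ERR are transcription factors known to bind such promoters, and several complex IV subunits have a second isoform used mainly in muscle, lung or testis.

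The bases before the start site are shown for 12 promoters: 8 that hold letters of the NRF1 or ETS motif, 2 with an accessible start but none of these letters before it, and 2 with no peak at the start. All come from RefSeq, assembly GRCm38.p6, and run 5′ to 3′ on the strand of the gene. Capitals mark matches, on either strand, to the palindromic consensus of NRF1, to CCGGAAG (ETS factors) or AAGATGGCG (YY1, no match in these 12). Where another gene starts within 150 bases, only the bases between the 2 start sites are given. The first 4 are from complexes I and II. Sdha (chr13:74350241-74350316, minus strand) and Sdhd (chr9:50603850-50603900, minus strand) code for the flavoprotein and a membrane anchor of succinate dehydrogenase. Ndufb4 (chr16:37654369-37654518, minus strand) and Ndufa11 (chr17:56717700-56717761, plus strand) code for accessory subunits of complex I.
Sdha: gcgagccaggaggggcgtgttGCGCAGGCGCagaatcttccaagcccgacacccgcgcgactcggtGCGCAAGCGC
Sdhd: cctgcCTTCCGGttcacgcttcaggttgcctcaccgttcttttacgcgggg
Ndufb4: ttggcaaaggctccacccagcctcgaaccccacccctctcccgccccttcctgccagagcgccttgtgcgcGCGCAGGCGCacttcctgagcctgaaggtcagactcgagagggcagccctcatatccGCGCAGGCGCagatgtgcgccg
Ndufa11: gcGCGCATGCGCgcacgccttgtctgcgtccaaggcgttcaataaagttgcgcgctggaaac
The next 4 are from complexes III to V. Uqcrh (chr4:116075071-116075220, minus strand) codes for the hinge protein of complex III and Cox6a1 (chr5:115348959-115349108, minus strand) for the common isoform of complex IV subunit VIa. Atp5h (chr11:115419920-115420069, minus strand) and Atp5e (chr2:174464102-174464251, minus strand) code for subunits d and ε of ATP synthase.
Uqcrh: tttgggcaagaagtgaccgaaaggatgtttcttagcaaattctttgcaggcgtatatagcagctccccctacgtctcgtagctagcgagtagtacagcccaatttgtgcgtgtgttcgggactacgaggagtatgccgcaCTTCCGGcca
Cox6a1: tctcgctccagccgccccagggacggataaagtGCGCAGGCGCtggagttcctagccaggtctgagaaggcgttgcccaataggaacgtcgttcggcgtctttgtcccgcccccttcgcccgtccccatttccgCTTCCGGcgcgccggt
Atp5h: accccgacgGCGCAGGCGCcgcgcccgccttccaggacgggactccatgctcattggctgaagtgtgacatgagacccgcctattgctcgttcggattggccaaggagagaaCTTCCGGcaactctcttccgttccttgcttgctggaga
Atp5e: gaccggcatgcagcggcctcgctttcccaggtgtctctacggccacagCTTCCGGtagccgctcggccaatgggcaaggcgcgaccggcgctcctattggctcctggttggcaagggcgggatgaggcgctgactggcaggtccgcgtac
Ndufv2 (chr17:66101560-66101709, minus strand), a flavoprotein-arm subunit of complex I, and Cox7a1 (chr7:30184021-30184170, plus strand), the heart and muscle isoform of complex IV subunit VIIa, had peaks over the start in all 4 libraries without these letters.
Ndufv2: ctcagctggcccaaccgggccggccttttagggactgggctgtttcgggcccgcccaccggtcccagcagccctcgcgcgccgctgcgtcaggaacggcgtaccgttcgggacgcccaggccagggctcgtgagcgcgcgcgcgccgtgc
Cox7a1: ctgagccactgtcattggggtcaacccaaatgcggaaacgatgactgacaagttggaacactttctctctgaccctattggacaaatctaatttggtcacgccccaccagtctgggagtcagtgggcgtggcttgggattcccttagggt
Cox8b (chr7:140900447-140900596, minus strand), the muscle isoform of complex IV subunit VIII, and Ndufa6 (chr15:82354292-82354441, minus strand), an accessory subunit of complex I, had no peak over the start in any library.
Cox8b: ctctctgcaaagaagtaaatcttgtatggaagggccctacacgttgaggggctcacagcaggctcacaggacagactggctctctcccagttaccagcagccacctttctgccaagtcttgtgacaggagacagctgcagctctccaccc
Ndufa6: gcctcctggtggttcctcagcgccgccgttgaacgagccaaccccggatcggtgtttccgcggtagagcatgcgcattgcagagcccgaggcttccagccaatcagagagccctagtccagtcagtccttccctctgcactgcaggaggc
In the sequences above, the NRF1 letters began 55 and 10 bases before the start of Sdha, 79 and 22 before that of Ndufb4, 60 before that of Ndufa11, 117 before that of Cox6a1 and 141 before that of Atp5h. The ETS letters began 46 bases before the start of Sdhd, 10 before that of Uqcrh, 16 before that of Cox6a1, 38 before that of Atp5h and 102 before that of Atp5e.

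Over whole RefSeq promoter windows (250 bases before the start to 50 after it), motif matches were counted in 70 subunit genes with a start in the table and in all 27025 genes of the table. NRF1 letters stood in 17 of 70 subunit promoters (24.3%) against 5.19% of all, ETS letters in 16 (22.9%) against 9.93%, and YY1 letters in 7 (10.0%) against 1.64%. At least 1 of the 3 stood in 34 of 70 (48.6%) against 15.1%. Much of the table is closed in these cells, so the same was counted where a peak covered the start in all 4 libraries: 31 of 61 subunit genes (50.8%) against 33.9% of 9497 genes. In that comparison NRF1 stood at 26.2% against 13.1%, YY1 at 8.20% against 3.73%, and ETS at 26.2% against 21.3%. AAGGTCA, the ERR motif, stood at 13.1% against 3.71%. GGGCGG, the SP1 family's GC box, ran the other way, at 39.3% (24 of 61) against 74.3%. Over the whole table it stood at 40.0% (28 of 70) against 38.2%, so the lower share was seen among accessible promoters alone. CCAAT (NFY) stood at 41.0% against 43.4%, TGACGTCA (CREB/ATF) at 6.56% against 3.91% and TATAAA, a core promoter element, at 8.20% against 7.25%. The SMAD palindrome GTCTAGAC was in 0 of 61 subunit promoters and in 0.316% of the accessible promoters. With genes of 1 start site only, the GC box stood at 39.3% of 56 subunit genes against 72.2% of 7550, and the NRF1 letters at 25.0% against 12.8%. Matches of the NRF1, ETS and YY1 motifs overlapped each other in 0 promoters of the table, and matches of any pair of the 9 motifs overlapped in 1 subunit gene and in 232 genes of the table. A match describes letters in the window and not a bound site.

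**Figure D1:**
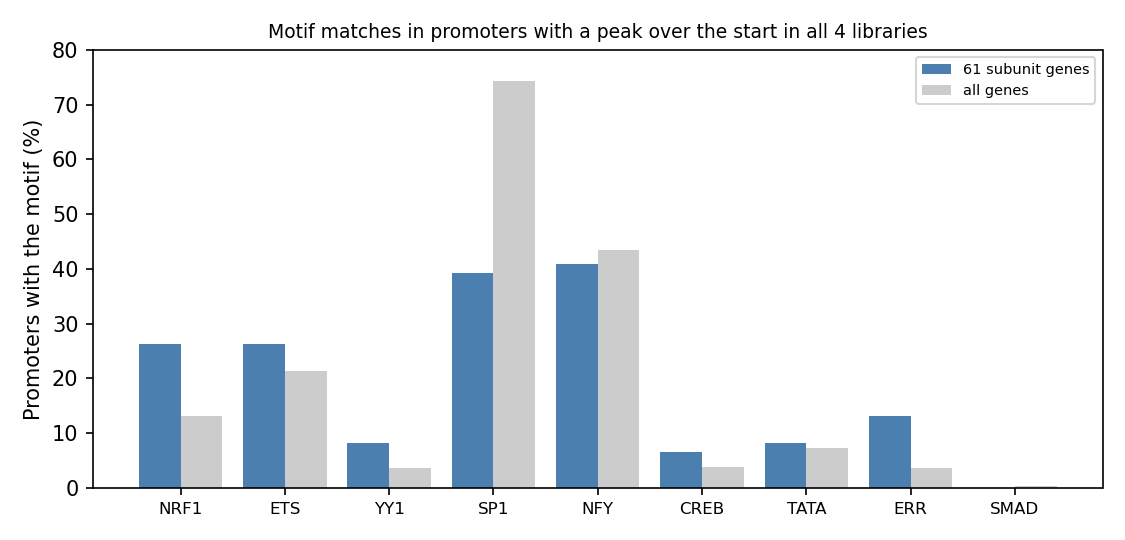
Share of promoters (y axis, percent) that hold each motif (x axis) on either strand, among genes with a peak over the start in all 4 libraries. Blue bars are the 61 subunit genes and grey bars the 9497 genes of the table; the NRF1 share is 26.2% against 13.1% and the SP1 share 39.3% against 74.3%.

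By complex, at least 1 of the NRF1, ETS and YY1 motifs was found in 15 of 34 complex I genes, 3 of 3 complex II genes, 3 of 5 complex III genes, 3 of 14 complex IV genes and 10 of 14 complex V genes. The 31 autosomal genes with these letters and a peak over the start had a median read density of 2.84 there, and the 28 without them 2.63. Read density here is the number of high-quality reads in the peak per kb of its length, scaled to a library of 1000000 such reads and, here, averaged over the 4 libraries. The ranges, 2.00 to 6.98 and 1.50 to 6.21, overlapped over most of their length. Median GC content was 59.0% in the 61 accessible subunit promoters against 63.7% in all accessible promoters, while the observed-to-expected CpG ratio was 0.83 against 0.82. Of the 61, 19 (31.1%) started within 1000 bases of a gene running away on the opposite strand, against 25.1% of all accessible starts. With genes of 1 start site only, the shares were 26.8% and 24.5%. Sdha is so placed with Ccdc127, Sdhd with Timm8b, Ndufa11 with Vmac, Atp5h with Kctd2 and Uqcrh with Lrrc41.

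The libraries held 172146474 to 224226184 high-quality reads, with 70692 to 178358 peaks, and vehicle replicate 2 had the largest number. Start-site enrichment stood at 2.72 and 2.48 for vehicle but at 3.12 and 3.04 for activin, so the treatments did not overlap in that library-wide measure. Of 10 gonadotrope marker genes, 6 had a promoter peak in all 4 libraries (Cga, Lhb, Gnrhr, Gata2, Egr1 and Tgfbr3l), and Fshb had none in any. The remaining 3 gonadotrope markers had one in some libraries. No marker of the other pituitary, fibroblast, immune or endothelial lists had one in all 4. In some libraries one was found for 1 of 4 somatotrope and lactotrope, 3 of 3 corticotrope and 0 of 2 thyrotrope markers. The same held for 2 of 3 fibroblast, 1 of 2 immune and 1 of 2 endothelial markers.

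Of the 70 genes named by the rule, 50 had a promoter peak under their own name in all 4 libraries, where 44.9% of the 15603 genes did. Among the 59 subunit genes the number was 42, made of 22 of 29 for complex I, 2 of 4 for complex II, 3 of 5 for complex III, 8 of 13 for complex IV and 7 of 8 for complex V. Much of the shortfall lay in the naming. Of the 20 genes named in fewer than 4 libraries, 14 had a peak in the same region in all 4, which the annotation gave to a neighbouring gene or to an exon or intron in the other libraries. For Sdhd the −log10 q of the peak caller, the false discovery rate on a log scale, was 10.6, 9.50, 21.3 and 13.7 (vehicle replicates 1 and 2, then activin replicates 1 and 2, the order used throughout), and 3 of these 4 peaks were named Timm8b. For Sdha it was 10.6, 11.1, 25.1 and 18.8, the last named Ccdc127. For Cox4i1, the common isoform of complex IV subunit IV, it was 15.5, 12.4, 28.9 and 24.8, and only the third carried its name, the others that of Emc8. Uqcr10 lost 1 library to Zmat5, Ndufb2 lost 3 to Gm16272, and Cox6a1 lost 2 to RP24-132L16.11. The peaks of Atp5a1, Cox5b, Cox6b1, Ndufa9, Ndufaf1, Ndufb4 and Ndufb10 were classed as exon or intron of the same gene in 1 or 2 libraries.

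Counting any peak over the annotated start removes this dependence on names. RefSeq lists 85 subunit genes under the same pattern, of which 70 have a start in the promoter table. A peak covered that start in all 4 libraries for 61 of the 70 (87.1%), against 35.1% of the 27025 genes in the table. The 61 include 12 genes that no peak was named for as a promoter. Cox5a, Uqcrfs1, Ndufc2 and Atp5j2 had peaks of their own name classed as exon or intron. The peaks of Atp5b, Atp5h, Atp5g2, Atp5o, Atp5pb, Ndufa7, Ndufa11 and Ndufb1 bore the names Snord59a, Kctd2, Mir688, D430001F17Rik, RP23-169H9.3, Rps28, Vmac and Cpsf2. Of the 15 genes without a start in the table, 10 had a peak over 1 end of the gene in all 4 libraries. Among them were Uqcrq, where the peak was named Gdf9, and Ndufs1, named Eef1b2. Together 71 of 85 genes were covered: 32 of 38 for complex I, 4 of 4 for complex II, 8 of 8 for complex III, 13 of 20 for complex IV and 14 of 15 for complex V. Cox6c is not among the 71, since its peak lay over an end of the gene in 3 libraries, although a promoter peak of its own name was present in all 4. The end used is not known to be the 5′ end for those 10, and for Ndufa4l2 it was a peak named Stac3. For genes without a start, the end with a peak in more libraries was taken. The count of 71 is thus looser than that by start, and its share over all genes was not computed. By start alone the numbers were 29 of 34, 3 of 3, 5 of 5, 11 of 14 and 13 of 14 for complexes I to V.

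**Figure D2:**
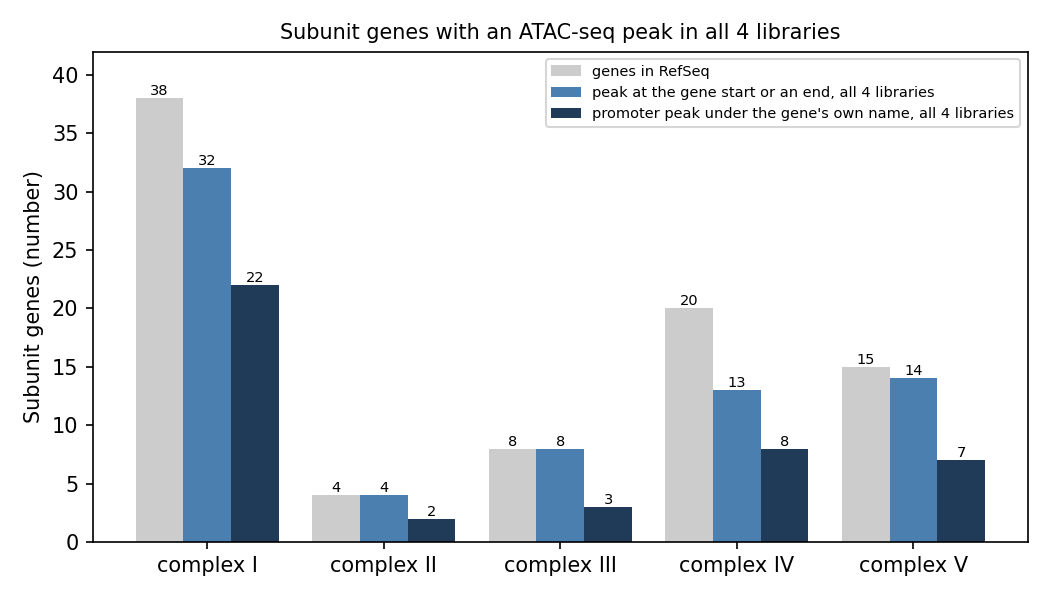
Number of subunit genes (y axis) of each complex (x axis) listed in RefSeq (grey), with a peak at the start or at a gene end in all 4 libraries (mid blue), and with a promoter peak under their own name in all 4 (dark blue). All 8 complex III genes had a peak by place (5 at the start, 3 at a gene end), and 3 of the 8 had one by name. Complex IV had the lowest share by place, 13 of 20.

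Of the genes not covered in this way, 7 belong to complex IV, Cox6c included, 6 to complex I and 1 to complex V. No peak covered the start of Cox7b2, Cox6b2 or Cox8b, and none covered an end of Cox6a2. Each is an isoform used mainly in muscle or testis. The nearest peaks lay 8.02 to 8.90 kb from the start of Cox7b2, 2.31 to 2.53 kb from that of Cox6b2 and 0.894 to 8.21 kb from that of Cox8b. Cox8c, a testis isoform, had a peak at an end of the gene in vehicle replicate 2 alone, with a −log10 q of 3.20. Cox4i2, the lung isoform of subunit IV, was named in the vehicle libraries alone, with a −log10 q of 1.26 and 1.16, close to the lowest value the lists hold.
Their common partners had peaks. Cox4i1, Cox6a1, Cox6b1, Cox7b and Cox8a each had a peak at the promoter in all 4 libraries, as did Cox7a2 and Cox7a2l. Over the start, the −log10 q was 3.14, 2.27, 5.57 and 3.15 at Cox6b1 and 3.20, 2.02, 8.39 and 1.32 at Cox7b. Cox7a1 differed from the other muscle isoforms, with a −log10 q of 12.6, 11.4, 17.7 and 16.1 and a read density of 4.40, 4.12, 4.52 and 4.39. That density was higher than that of Cox7a2, the liver-type isoform of the same subunit, in every library (1.97, 1.79, 2.37 and 2.11). The peak caller's fold over background had the opposite order in every library, 3.64, 3.35, 3.84 and 4.06 for Cox7a1 against 5.13, 3.88, 5.82 and 5.54 for Cox7a2. The −log10 q of Cox7a2 was 11.7, 8.04, 18.9 and 14.2, above that of Cox7a1 in activin replicate 1 alone. The CpG ratio was 0.33 at the promoter of Cox7a1, and 0.56, 0.43 and 0.11 at those of Cox7b2, Cox6b2 and Cox8b, which had no peak over the start.

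In the other complexes the uncovered starts were those of Ndufa6 and Atp5g1. The nearest peaks lay 14.6 to 18.7 kb from the start of Ndufa6 and 10.6 to 10.9 kb from that of Atp5g1, 1 of the 3 genes for the c-ring subunit of ATP synthase. The other c-ring genes were covered in every library, Atp5g2 with a −log10 q of 28.3, 26.3, 28.3 and 26.6 and Atp5g3 with 7.41, 7.26, 15.1 and 9.82. A peak covered the start of Ndufa9 in 3 libraries (1.26 in vehicle replicate 2, 5.54 and 2.50 with activin), that of Ndufs4 in replicate 1 of each treatment (4.13 and 2.96), and that of Ndufb4b, a copy related to Ndufb4, in vehicle replicate 1 alone (1.50). Ndufs1, the largest core subunit of complex I, was named once, at 1.10 in activin replicate 2, but the peak over 1 end of that gene had 6.55, 4.25, 15.3 and 11.9. The single promoter peak named for Uqcrh, at 1.4, was not the one over its start, which had 7.46, 6.84, 14.4 and 12.7. An absent peak is not a closed promoter beyond doubt, since each list was called on its own library.

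In complex I, among genes with a promoter peak of their own name in all 4 libraries, mean read density was highest at Ndufs8, which carries iron-sulfur clusters on the path to ubiquinone (6.64, 5.43, 6.91 and 8.49), and lowest at the accessory subunit Ndufb3 (1.37, 1.37, 1.63 and 1.65). The density of Ndufs8 was above that of Ndufb3 in every library. By the peak caller's fold over background, Ndufs8 had 4.07, 3.17, 4.28 and 4.83 and Ndufb3 had 3.54, 3.53, 4.72 and 4.56. That order turned in vehicle replicate 2 and activin replicate 1. By place, the region of Ndufa9 had a density of 1.28, 1.00, 1.72 and 1.25, below that of Ndufb3 except in activin replicate 1. The 3 Ndufv genes code for the flavoprotein subunits of the NADH-oxidising arm. Ndufv2 had 6.02, 4.81, 6.58 and 7.41, Ndufv1 had 5.83, 4.29, 5.77 and 5.30, and Ndufv3 had 5.72, 4.71, 4.68 and 5.02. All 3 were below Ndufs8 in mean density and above Ndufs7, another iron-sulfur subunit, in every library (2.69, 2.41, 3.02 and 3.06). Ndufs1, of the same arm, had 2.07, 1.41, 2.59 and 2.64 at the peak over 1 end of the gene. Ndufab1, the mitochondrial acyl carrier protein, had the second highest −log10 q of the complex in activin replicate 1, 51.0. The peak over the start of Ndufa11, which the rule leaves out for its name, had a density of 6.47, 5.81, 7.34 and 7.03, in the range of Ndufs8 and Ndufv2.

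In complex II all 4 genes had an accessible promoter. Read by place, Sdhb, the iron-sulfur subunit, had the highest density (4.65, 2.96, 5.05 and 5.08) and the flavoprotein Sdha the lowest (2.12, 1.81, 2.56 and 2.75) in every library. The membrane anchors lay between them, Sdhc with 2.97, 2.74, 2.99 and 2.82 and Sdhd with 2.92, 2.43, 3.42 and 3.31. This order belongs to read density alone. By the peak caller's fold over background, Sdha was the highest in every library (4.75, 4.54, 6.17 and 5.63). Sdhb had 4.02, 3.16, 4.52 and 4.85, and Sdhc was the lowest (2.78, 2.89, 3.13 and 3.33).
In complex III, under the genes' own names, Uqcr11, a small subunit, had a density of 3.67, 2.81, 3.16 and 2.48. Uqcrc1, a core subunit, had 2.42, 2.04, 2.80 and 2.53, so the order of the pair turned in activin replicate 2. Uqcrfs1, the Rieske iron-sulfur protein, was lower by place (1.83, 1.37, 1.78 and 1.82). The peak over 1 end of Uqcrq, another small subunit, had the highest density of the complex by place (5.59, 4.48, 6.71 and 5.89).

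In complex IV the highest mean density under the gene's own name was at Cox7a2l, which helps to join complexes III and IV (4.44, 2.99, 5.29 and 5.21), and the lowest at Cox7c (1.33, 1.58, 2.12 and 2.01), close to that of Cox6c (1.82, 1.42, 1.87 and 1.96). By place, Cox4i1 was higher still, with 5.09, 4.32, 6.40 and 6.21. Cox5b had 3.86, 2.36, 4.61 and 3.10 and Cox5a 3.66, 3.61, 4.22 and 4.15. In complex V the small subunit Atp5e had the highest mean density of all genes named in every library (6.05, 6.34, 7.22 and 8.31) and Atp5l the lowest of these in its complex (2.15, 1.70, 2.54 and 2.14). By place, Atp5pb had a lower mean (1.49, 1.58, 2.35 and 2.29). Ndufs8 exceeded Atp5e in vehicle replicate 1 and activin replicate 2, so the order of these 2 was not fixed. The rotor subunit Atp5c1 had 3.82, 3.20, 4.15 and 4.53. The subunits α and β of the catalytic head, read by place, were lower: Atp5a1 had 2.81, 2.51, 3.80 and 3.71, and Atp5b 2.76, 1.44, 3.08 and 3.30.
On chromosome X, for which the quality report gives no read numbers, Ndufb11 had a −log10 q of 10.5, 6.22, 16.4 and 13.0 and Cox7b of 7.84, 8.65, 19.5 and 15.2. This Cox7b peak is the higher of 2 and does not cover the RefSeq start, where the values were 3.20, 2.02, 8.39 and 1.32, with activin replicate 2 below both vehicle libraries. Ndufa1 was named in activin replicate 2 alone (3.01), and 2 more libraries had a peak over its start named Rnf113a1 (1.16 and 1.85).

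Against all genes with a promoter peak in all 4 libraries, the subunit promoters were slightly less dense. Their median density was 2.69, 2.29, 3.03 and 2.93, against 3.14, 2.73, 3.59 and 3.42 for all 7003 genes. The medians for cytosolic ribosomal protein genes (62 genes) were 2.73, 2.60, 3.04 and 3.05, for mitochondrial ribosomal protein genes (38) 2.93, 2.58, 3.01 and 3.25, and for proteasome subunit genes (21) 3.28, 2.70, 3.17 and 3.89. In all 4 libraries the subunit genes had a lower median than the full set and, except in activin replicate 1, than each of the 3 other sets by name. In activin replicate 1 they lay above the mitochondrial ribosomal set. Densities stand for autosomal genes, 40 of the 42 subunit genes. The median −log10 q was 10.6, 8.75, 17.0 and 13.9 for the subunit genes and 10.6, 9.55, 18.4 and 13.9 for all 7003. Promoter peaks of subunit genes were shorter, with a median of 624, 732, 834 and 724.5 bases against 777, 809, 925 and 863. These medians describe the libraries and were not tested.

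With activin, the −log10 q of the promoter peaks stood higher at most subunit genes, as it did at most genes. Both activin values lay above both vehicle values for 33 of 42 subunit genes, and both below for 0. Over all 7003 genes 75% separated upward and 0.800% downward, so the share among subunit genes was near the background. The count was 16 of 22 for complex I, 2 of 2 for complex II, 3 of 3 for complex III, 7 of 8 for complex IV and 5 of 7 for complex V. Ndufv2 showed the common pattern, with 31.6 and 31.5 for vehicle against 53.0 and 44.1 for activin. The 9 genes whose groups overlapped were Ndufa12, Ndufa3, Ndufa8, Ndufb8, Ndufs5, Ndufs6, Cox6c, Atp5d and Atp5k. Peak class and place mattered for 2 genes. Over the start, Atp5d had 6.25, 8.63, 9.30 and 11.6, which separate upward, but the last of these peaks was not classed as promoter. Cox7b went the other way, separated at its higher promoter peak but not over its start (3.20, 2.02, 8.39 and 1.32). The −log10 q of a peak rises with the depth and the signal over background of its library, and the start-site enrichment given above was also higher in both activin libraries. Its part in this shift was not tested.

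**Figure D3:**
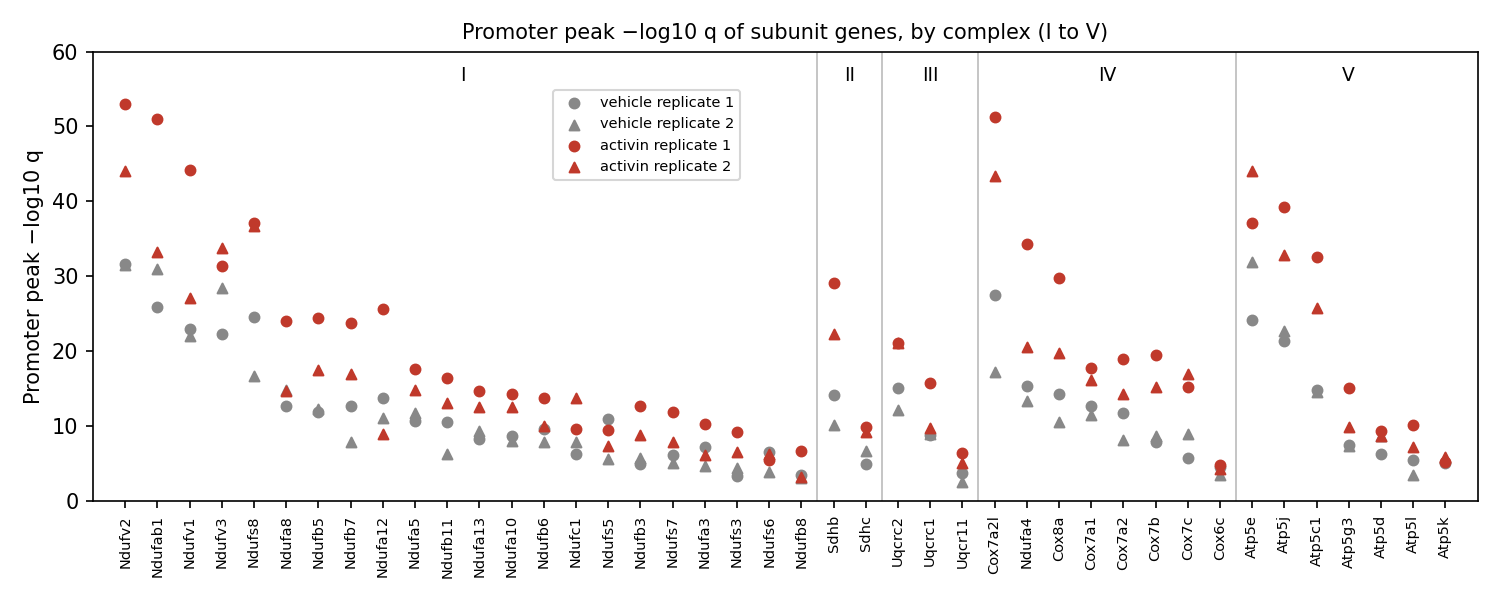
Promoter peak −log10 q (y axis) of the 42 subunit genes with a promoter peak under their own name in every library (x axis, grouped by complex I to V), 1 point per library. Grey marks the vehicle and red the activin libraries, circles replicate 1 and triangles replicate 2; in 33 genes both red points lie above both grey points.

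Read densities were compared over 13871 regions with 1 peak of each library that shared at least 50% of their span, after centring each library on its median. Of 65 autosomal member regions with 1 peak per library, 49 met this limit, standing for 40 subunit regions and 9 others. No member region changed at an adjusted p of 0.05 (limma with Benjamini-Hochberg adjustment over all 13871 regions), and neither did any of the other regions (background 0 in both directions). At an unadjusted p under 0.05 there were 2 member regions higher with activin (background 3.62%) and 4 lower (background 5.91%). The log2 changes of the 49 ran from −0.37 to 0.35 with a median of 0.01, beside a median of −0.005 over all shared regions and of 0.03 over the 5697 shared promoter regions. Groups did not overlap in 12 member regions that were higher (background 20.9%) and 9 that were lower (background 20.5%). These backgrounds are shares of all shared regions, and promoter regions leaned upward. Of the 5697 shared promoter regions, 1482 separated higher and 853 lower, and 259 and 202 had an unadjusted p under 0.05 by limma. In 2 against 2 libraries an exact permutation test cannot go below a p of 0.33. By complex, the median log2 change was −0.02 over 21 regions for complex I, 0.11 over 4 for complex II, 0.08 over 8 for complex IV and 0.08 over 6 for complex V, and −0.02 for the 1 complex III region, Uqcrc1.

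**Figure D4:**
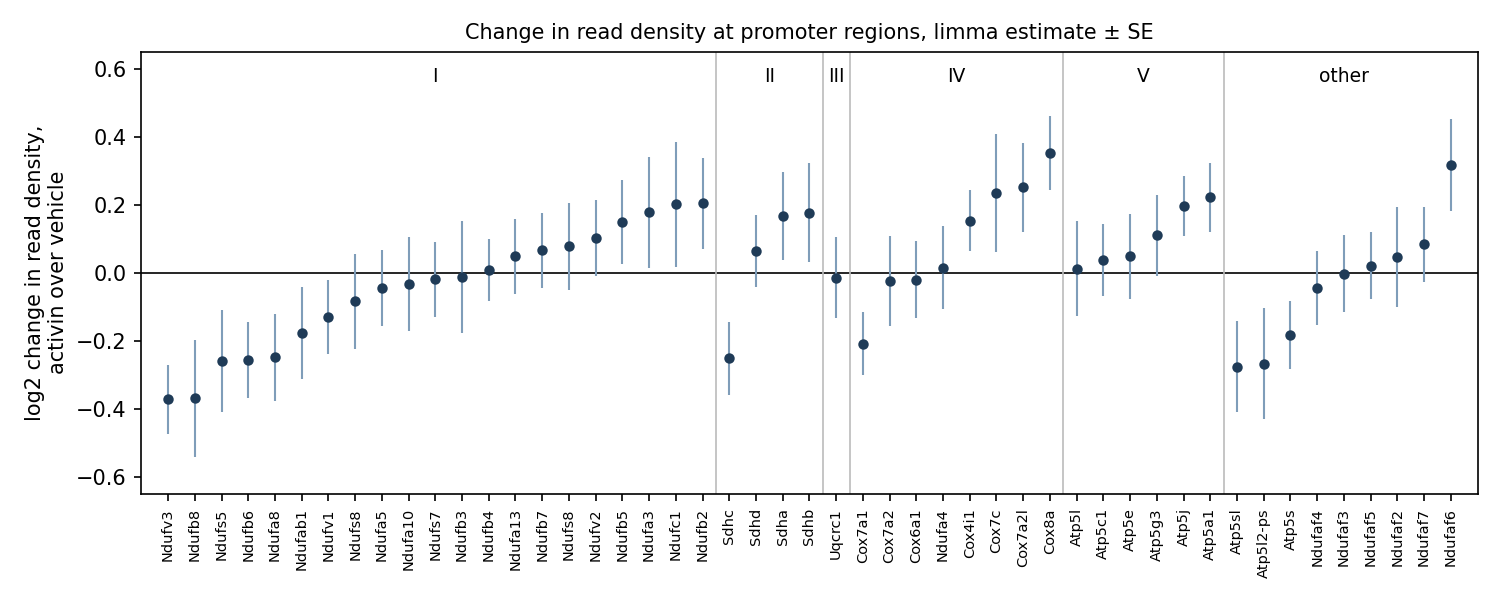
Log2 change in centred read density, activin over vehicle (y axis), for the 49 tested member regions (x axis, grouped by complex, with genes that are not subunits under other). Points are limma estimates and bars are ± 1 SE. All estimates lie between −0.37 and 0.35, and Ndufs8 appears at 2 regions. The Ndufs8 region at chr19:3906091-3907491 and the Ndufc1 region at chr3:51415230-51417047 do not cover the RefSeq start of their gene.

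The largest estimate upward was at Cox8a, the common isoform of complex IV subunit VIII. Its density before centring was 3.67 and 2.86 with vehicle (mean 3.26 ± 0.575, SD, n = 2) and 5.42 and 4.60 with activin (5.01 ± 0.579, n = 2). The groups did not overlap. The log2 change after centring was 0.35 ± 0.11 (SE) with an adjusted p of 0.428 by limma. That value depends on peak length, since without division by length it was −0.11. The called peak was 852 and 1020 bases long with vehicle and 785 and 723 with activin.
Ndufaf6, a complex I assembly factor, came next, with a density of 3.64 and 2.44 against 4.43 and 4.55 and a log2 change of 0.32 ± 0.14 (adjusted p = 0.518, limma). Without vehicle replicate 2 its change was 0.12, and without vehicle replicate 1 it was 0.52. The next smallest p among the upward regions, below those of 5 regions with larger estimates, was that of Atp5j, coupling factor 6 of ATP synthase, with densities of 4.96 and 4.44 against 6.63 and 6.36 and a log2 change of 0.19 ± 0.09 (adjusted p = 0.529, limma).

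The largest estimate downward was at Ndufv3, with densities of 5.72 and 4.71 against 4.68 and 5.02. These overlapped before centring and did not after it, with a log2 change of −0.37 ± 0.10 and an adjusted p of 0.405 by limma. Its called peak was longer with activin (1439 and 1190 bases against 799 and 950), and without division by length the change was 0.06. Sdhc had 2.97 and 2.74 against 2.99 and 2.82, a log2 change of −0.25 ± 0.11 (adjusted p = 0.511, limma), which turned to 0.26 without division by length. Ndufb6, an accessory subunit of complex I, had 2.83 and 2.65 against 2.80 and 2.75 and a log2 change of −0.26 ± 0.11 (adjusted p = 0.518, limma). For Sdhc and Ndufb6 the densities per library total overlapped between treatments, and scaled to library totals the changes were 0.02 for both. The called peaks of Sdhc were 362 and 473 bases long with vehicle and 648 and 660 with activin.

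The scaling sets the sign of the general shift. When densities were scaled to the total of high-quality reads and not centred, the median change of all shared regions moved from −0.005 to 0.27, and that of the 49 member regions from 0.01 to 0.29. On that scale Cox8a (0.63), Ndufaf6 (0.59) and Cox7a2l (0.52) passed the adjusted threshold, with adjusted p of 0.0236, 0.0342 and 0.0489 by limma, beside a background of 3.99% upward and 0.375% downward. Groups then separated upward in 32 of 49 member regions (background 62.2%) and downward in 0 (background 3.73%).

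Other genes of the pathway were read by the name of their promoter peak. Of 5 further genes, for subunits, electron carriers and an inhibitor of ATP synthase, only the inhibitor's, Atpif1, was found in all 4 libraries. The other 4 had a promoter peak in some libraries. Found in all 4 libraries were also 11 of 31 assembly factors, 6 of 12 transcription regulators and 4 of 13 tricarboxylic acid cycle genes. The same loss by naming applies, and it was not corrected for these lists. No tested region of these 4 lists changed at an adjusted p of 0.05 by limma, out of 6, 16, 6 and 7 regions. Their median log2 changes were −0.05, 0.08, 0.03 and 0.06. Among the regulators, Tfb1m, a mitochondrial rRNA methyltransferase, had the strongest peak, with a −log10 q of 88.9, 65.8, 108.1 and 96.3, and Esrra, the gene of ERRα, had 25.6, 19.6, 42.7 and 29.8. Gabpa starts on the opposite strand from Atp5j, with 147 bases between its start and 1 of the 2 RefSeq starts of Atp5j. Gabpa had a promoter peak of its name in vehicle replicate 2 alone (1.65). Its start lies in the region of the Atp5j peak, which was present in all 4 libraries with a −log10 q of 21.4, 22.7, 39.2 and 32.9.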

How the data were processed

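ATAC-seq of 4 libraries was analysed (2 vehicle, 2 activin). Per the submitters' processing notes, Bowtie2, MACS2 and HOMER and the genome GRCm38 (mm10) were used; versions and settings are not given in the sources used here. The authors deposited, for each library, a broad peak list called on that library alone, with a score, a fold ratio over background, and the −log10 p and −log10 q of each peak; a peak annotation with the distance to a start site and the peak score; and a quality report of ataqv 1.3.1 (per the file headers) with the number of high-quality autosomal reads overlapping each autosomal peak. The fold and score are the authors' values and were not compared between lists.

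Members were found by name and class. Where a gene had several promoter peaks, the one with the highest −log10 q was used. Peaks were merged at 1 bp of overlap. Shared autosomal regions had 1 peak per library and a common part of at least 50%. For these, log2 of (reads + 1) per kb of the peak as called in that library, centred on the library median, was tested with limma 3.58.1 in R 4.3.3 (eBayes with trend), adjusted over all 13871 regions. A change on that scale understates that of regions with few reads. A count model was not used, since intervals differ between libraries. The step was tested on simulated data. Starts, gene ends and promoter sequences came from RefSeq GRCm38.p6, matched by symbol; 70 of 85 subunit genes had a start in that table. Members and gene lists were chosen with earlier results of these data known. Genes were named by a fixed rule: the highest and lowest mean density in each complex, the 3 smallest p in each direction, members found in some libraries or none, core subunits, isoform pairs and members on chromosome X. Other genes named, Ndufa11, Ndufab1, Ndufv2 and the regulators among them, were chosen after their values were seen. Alternatives covered the scaling, the pseudocount, peak length, the overlap and read minimums, the replicate block, the −log10 q minimum, the distance to the start and leaving out each library. Regions over start sites, as stand-ins for the named promoter regions, were added after seeing the data. Some items are not reported here.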

Additional observations from a re-analysis of the deposited data

How the results depend on the processing

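With only 2 libraries per treatment, and lists called on each library alone, absence of a call does not show that a promoter did not change. The number of member regions past the adjusted threshold was 0 in every alternative but 1: scaled to all high-quality reads it was 3, with 32 separated regions (65.3%, against 65.9% of all regions) and a median log2 change of 0.29. Without an overlap minimum, separated regions numbered 33 of 65 (50.8%, against 43.0% of all) and the median was 0.11 (0.02 for all); with a common part of at least 75% they numbered 5 of 16 (31.2%, against 41.3%). Leaving out 1 library gave 32 to 40 separated regions (65.3% to 81.6%, against 69.2% to 73.0% of all), as 1 against 2 libraries separate more readily, and medians of −0.017 (without activin replicate 2) to 0.075 (without activin replicate 1). Centring on shared promoter regions, a pseudocount of 10, a minimum mean of 50 reads and the regions over start sites left the counts within 1.5 times and the medians between −0.01 and 0.01. Without division by length the change of Cox8a was −0.11, of Ndufv3 0.063 and of Sdhc 0.26; scaled to all high-quality reads that of Sdhc was 0.021 and of Ndufb6 0.016. Numbers of members with a promoter peak in all libraries ran from 40 (−log10 q of at least 5) to 53 (leaving out 1 library), beside 61 in the different set of RefSeq subunit genes with any peak over the start, and those with separated −log10 q from 33 to 50.

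For libraries of equal replicate number, deviations from the group means correlated at −0.03 over 13871 regions. With 2 libraries per group this single value cannot show whether they were prepared as pairs. With the replicate block, 0 member regions passed, the median was 0.01 and 21 regions separated. Over all regions the block called 4, all lower, against 0 without it.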
